A study of Mus musculus with 8 samples.

Results

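The genes described here are the troponin and tropomyosin genes of the mouse heart ventricle, the regulatory proteins of the thin filament. They are the 10 rows of the deposited table of 54429 rows whose gene symbol is Tnnc1, Tnni1, Tnni2, Tnni3, Tnnt1, Tnnt2, Tpm1, Tpm2, Tpm3 or Tpm4, and each symbol matched 1 row. RNA came from both ventricles of C57BL/6 mice that carried floxed genes for the estrogen-related receptors alpha (Esrra) and gamma (Esrrg) in both groups. The AAV-Cre group (4 libraries) had received adeno-associated virus AAV-cTnT-Cre, with Cre recombinase under a cardiac troponin T promoter, at postnatal day 0 to 1. The AAV-Luc group (4 libraries) had received a luciferase virus at the same age, and the ventricles of both were collected at postnatal day 35. The design sets hearts given Cre in their muscle cells, with both receptors as its target, beside hearts given luciferase. Cre from this promoter acts in cardiomyocytes, and the share of them that recombined is not given in the sources used here.

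Troponin is the calcium switch of striated muscle. Troponin C binds calcium, troponin I holds the filament in the inhibited state until calcium arrives, and troponin T ties the complex to tropomyosin, the coiled rod that lies along actin and covers or uncovers the sites where myosin binds. Heart, slow skeletal and fast skeletal muscle use different sets of troponin genes, some of them shared. In the mouse heart, troponin I passes around birth from the slow skeletal gene Tnni1 to the cardiac gene Tnni3, and the proteins differ in an amino-terminal extension of the cardiac form that protein kinase A phosphorylates.

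The members lie on 7 chromosomes of mm10, and several troponin I genes sit beside a troponin T gene. Tnni3 (chr7:4518305-4524229) and the slow skeletal troponin T gene Tnnt1 (chr7:4504570-4516382) lie on the same strand, 1922 bases apart. Tnni1 (chr1:135779434-135810989) and the cardiac troponin T gene Tnnt2 (chr1:135836354-135852260) also share a strand, 25364 bases apart. Tnni2, the fast skeletal troponin I gene, is at chr7:142441808-142444410. Tnnc1, for the troponin C of heart and slow muscle, is at chr14:31208312-31211729. The tropomyosin genes are Tpm1 (chr9:67022590-67049406), Tpm2 (chr4:43514711-43523765), Tpm3 (chr3:90072649-90100902) and Tpm4 (chr8:72134975-72153142). All positions are from GENCODE M21.

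The 250 bases before an annotated start site are shown for the 4 adult heart genes that carry most of the signal below, and for the other member, Tpm3, in which an estrogen-related receptor element was found (RefSeq, GRCm38.p6, each written along its gene's own strand). Capitals mark the motif matches.
Tnni3 (chr7:4522529-4522778, minus strand): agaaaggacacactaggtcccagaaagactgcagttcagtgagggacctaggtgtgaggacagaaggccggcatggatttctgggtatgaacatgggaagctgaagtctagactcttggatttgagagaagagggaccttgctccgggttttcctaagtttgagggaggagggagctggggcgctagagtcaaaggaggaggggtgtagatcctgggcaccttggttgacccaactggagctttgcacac
Tnnt2 (chr1:135836084-135836333, plus strand): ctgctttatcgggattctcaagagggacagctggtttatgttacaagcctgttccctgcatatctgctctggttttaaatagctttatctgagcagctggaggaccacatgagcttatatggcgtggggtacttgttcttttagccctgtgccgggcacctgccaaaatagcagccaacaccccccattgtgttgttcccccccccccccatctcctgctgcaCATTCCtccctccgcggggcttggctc
Tnnc1 (chr14:31208062-31208311, plus strand): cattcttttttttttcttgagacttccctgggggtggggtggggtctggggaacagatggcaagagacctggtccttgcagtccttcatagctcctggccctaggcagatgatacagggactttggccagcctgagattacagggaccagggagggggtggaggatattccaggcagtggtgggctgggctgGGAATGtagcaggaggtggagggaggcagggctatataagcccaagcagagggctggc
Tpm1 (chr9:67049214-67049463, minus strand): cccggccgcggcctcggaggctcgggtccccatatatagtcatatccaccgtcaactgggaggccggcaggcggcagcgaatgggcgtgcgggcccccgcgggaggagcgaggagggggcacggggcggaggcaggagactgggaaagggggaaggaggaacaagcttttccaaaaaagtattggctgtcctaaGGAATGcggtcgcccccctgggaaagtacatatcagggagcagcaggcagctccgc
Tpm3 (chr3:90072401-90072650, plus strand): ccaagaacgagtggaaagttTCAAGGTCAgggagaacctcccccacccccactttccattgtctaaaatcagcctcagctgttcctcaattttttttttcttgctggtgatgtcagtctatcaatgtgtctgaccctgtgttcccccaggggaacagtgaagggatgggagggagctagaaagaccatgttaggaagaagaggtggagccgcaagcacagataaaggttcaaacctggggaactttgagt

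RefSeq promoters were found for 9 of the 10 members, and all but Tnni2 are among them. Matches were sought on both strands in the whole windows of 300 bases that reach 50 bases past the start. The estrogen-related receptor element TNAAGGTCA was found once, in Tpm3 at -230 from its first start site, and 1.28% of 32851 windows of that length hold it. The M-CAT element CATTCC, which TEAD factors bind, was found in Tnnt2 at -27, and on the opposite strand as GGAATG in Tnnc1 at -58 and in Tpm1 at -56. Of all windows, 14.7% hold an M-CAT. The MEF2 motif, in 3.69% of all windows, was in none of the members' windows. A match is only a run of letters, and the window shown for Tnni3 held none of these motifs. No window of a member held more than 1 match, so none overlap.

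Values are RPKM, read numbers divided by gene length and library size, so that levels of different genes are on a scale per length. Because the lengths used are unknown, ratios between genes are uncertain in level, though not in how they differ between groups. The totals that the steps of the low values imply ran from 48075000 to 60965000 reads, with means of 56311200 ± 3104400 in AAV-Cre and 56031200 ± 5636170 in AAV-Luc (SD, n = 4 each). Cardiomyocyte markers were high in both groups, though not all at a like level. Myh6, the adult heavy chain, averaged 3383 RPKM in AAV-Cre and 3509 in AAV-Luc, while Myl2 averaged 1885 in AAV-Cre and 4298 in AAV-Luc. Of the targeted genes, Esrrg measured 204.3 to 241.7 RPKM in AAV-Cre and 107.9 to 120.1 in AAV-Luc, which goes against its label, and Esrra 33.3 to 43.6 in AAV-Cre and 41.8 to 50.1 in AAV-Luc. A value summed over a gene does not show whether floxed exons were lost, so the groups are called here by their labels. The numbers given to libraries are only names. Nothing in the labels ties a library to an animal of its own, and the spread behind the p-values may thus be technical in part.

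The distribution of RPKM values as a whole was shifted between the groups. Over the 16385 genes tested with limma on log2(RPKM + 0.5), the median log2 fold change of AAV-Cre over AAV-Luc was 0.41, a factor of 1.33, and 73.3% of genes passed an adjusted p of 0.05, or 45.9% after centring. Each member's change is therefore also given after each library was centred on its median, and shares and ratios within a library, which no scaling of the library can alter, follow. Of the 10 members, 9 passed the filter of at least 1 RPKM in at least 4 libraries, and Tnni1 did not. As deposited, 6 of the 9 were higher in AAV-Cre, against 64.4% of all genes, and 1 was lower, against 8.87%. Their median log2 fold change was 0.35. After centring, 2 were higher, against 21.8% of all genes, and 3 were lower, against 24.1%, and their median was -0.055. Quantile normalization, which also removes the shift, called 4 higher (Tnni2, Tnnt2, Tpm1 and Tpm2) and 2 lower (Tnni3 and Tnnt1). The groups did not overlap in 6 of the 9, against 66.1% of all genes, with 5 higher (58.4% of all genes) and 1 lower (7.67%). The counts of higher and of separated members were thus near those of all genes, and what follows is about which member moved which way.

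**Figure D1:**
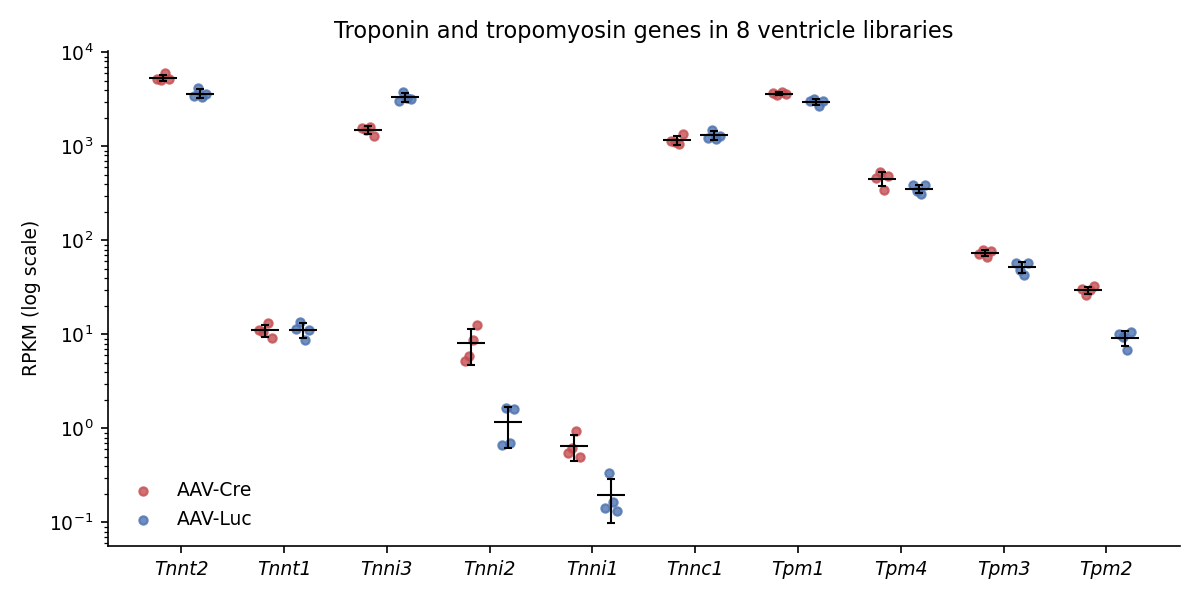
Level of each member gene in each library, in RPKM on a log scale, with red points for AAV-Cre and blue for AAV-Luc and black bars for the mean and SD of 4 libraries. Tnnt2, Tnni3, Tnnc1 and Tpm1 sit between 1056 and 5996 RPKM in all 8 libraries, Tnni3 is lower in AAV-Cre, and Tnni2, Tnni1 and Tpm2 are low genes that are higher in AAV-Cre.

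The adult cardiac troponin I gene Tnni3 fell and the adult cardiac troponin T gene Tnnt2 rose as deposited, so that 2 subunits of the same complex moved apart. Tnni3 measured 1572, 1502, 1626 and 1279 RPKM in AAV-Cre, against 3033, 3801, 3242 and 3207 in AAV-Luc. Every AAV-Cre library was below every AAV-Luc library, and the mean ratio was 0.450. In limma the log2 fold change came to -1.15 (SE 0.10, adjusted p = 1.17e-05), and -1.56 after centring (adjusted p = 3.4e-06). A fall of at least 2-fold was called in 1.79% of all genes tested. Dnaaf3, a neighbour whose annotated exons share 86 bases (4.17%) with Tnni3 on the same strand, averaged 0.588 RPKM in AAV-Cre and 2.56 in AAV-Luc, and reads of the shared bases cannot be told apart.

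Tnnt2 measured 5249, 5027, 5996 and 5221 RPKM in AAV-Cre, against 3469, 4203, 3330 and 3588 in AAV-Luc. The groups did not overlap, and the rise was 0.56 on the log2 scale (SE 0.10, limma adjusted p = 0.000567), but the call ended after centring, at 0.15 (adjusted p = 0.234). With quantile normalization Tnnt2 was called higher, at 0.78 (limma adjusted p = 3.93e-05), so the call depends on how the shift is removed. By its mean Tnnt2 ranked 22 among all rows in AAV-Cre and 32 in AAV-Luc, while Tnni3 ranked 51 in AAV-Cre and 35 in AAV-Luc. A cardiac troponin T promoter is also what drives Cre in the virus, and the treatment label of the luciferase virus names no promoter. A part of either vector in the value of Tnnt2 was not tested. The value of Tnnt2 is a sum over a gene with 15 annotated transcripts, and neither a splice form nor a vector read could be told apart in it.

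Tnnc1 measured 1143, 1108, 1056 and 1356 RPKM in AAV-Cre, against 1235, 1500, 1201 and 1302 in AAV-Luc. The groups overlapped, and the change of -0.17 did not pass (95% interval -0.39 to 0.06, limma adjusted p = 0.15). It was lower after centring (-0.58, adjusted p = 0.000774), and also without AAV-Cre library 4, the highest of its group (-0.24, adjusted p = 0.0363). With quantile normalization Tnnc1 stood at -0.18 and was not called (limma adjusted p = 0.237), so the call depends on how the shift is removed. The fast skeletal troponin C gene Tnnc2 measured 0.101 to 0.194 RPKM in AAV-Cre and 0 to 0.238 in AAV-Luc, and 74.0% of its exon bases are shared with Ube2c on the opposite strand.

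Ratios within a library put the subunits on a common scale. Tnni3 stood at 0.300, 0.299, 0.271 and 0.245 of Tnnt2 in AAV-Cre, against 0.874, 0.905, 0.974 and 0.894 in AAV-Luc. Every AAV-Cre library was below every AAV-Luc library. The difference of the mean log2 ratio was -1.71, a factor of 0.305 (two-sided exact permutation p = 0.0286, below which groups of 4 and 4 cannot go, and 0.0286 adjusted over the 4 ratios compared). Tnni3 to Tnnc1 averaged 1.303 ± 0.254 in AAV-Cre and 2.538 ± 0.114 in AAV-Luc (SD, n = 4 each), a log2 difference of -0.98. Tnnt2 to Tnnc1 averaged 4.664 ± 0.756 in AAV-Cre and 2.785 ± 0.025 in AAV-Luc (SD, n = 4 each), a log2 difference of 0.73. Both had an exact permutation p of 0.0286, raw and adjusted, with no overlap of the groups. Tnnt2 to Tnnc1 kept within 2.75 to 2.81 in the 4 AAV-Luc libraries and ran from 3.85 to 5.68 in the AAV-Cre libraries. AAV-Cre library 4 had the lowest Tnni3 and the highest Tnnc1 of its group, and was the only library in which Tnni3 stood below Tnnc1, at 0.943.

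**Figure D2:**
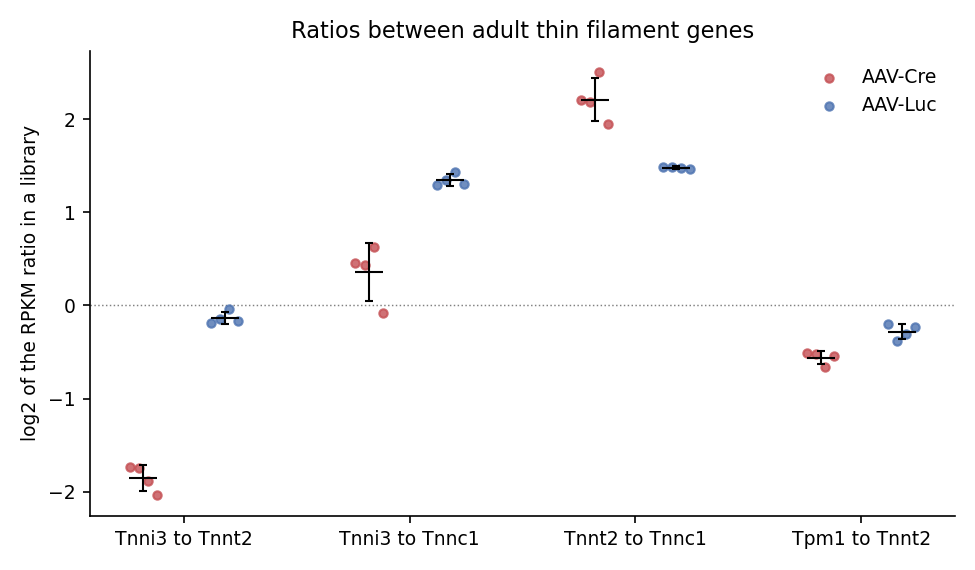
Log2 of the RPKM ratio of 2 genes within each library, with red points for AAV-Cre and blue for AAV-Luc and black bars for the mean and SD of 4 libraries. The groups do not overlap in any of the 4 ratios, and the largest difference, of -1.71, is that of Tnni3 to Tnnt2.

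The fast skeletal troponin I gene Tnni2 rose, at a low level. It measured 5.16, 5.93, 8.79 and 12.5 RPKM in AAV-Cre, against 0.674, 1.65, 0.699 and 1.61 in AAV-Luc. All AAV-Cre values were above all AAV-Luc values, with a mean ratio of 6.99. The rise in limma was 2.36 on the log2 scale (SE 0.30, adjusted p = 9.23e-05), and 1.95 after centring (adjusted p = 0.000451). Tnni2 reached the filter in all 4 AAV-Cre libraries and in 2 of the AAV-Luc libraries, so it would have been tested through the AAV-Cre libraries alone. Tnni1 measured 0.545, 0.618, 0.943 and 0.501 RPKM in AAV-Cre, against 0.144, 0.336, 0.165 and 0.131 in AAV-Luc. It was under 1 RPKM in every library, although the groups did not overlap (two-sided exact permutation p = 0.0286, not adjusted for other genes). If its counted length were the 3600 bases of its annotated exons, these values would be 106 to 176 reads in AAV-Cre and 27 to 58 in AAV-Luc. If both ends of a pair were counted, the independent fragments would be fewer.

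Troponin I in these ventricles was nearly all Tnni3 in both groups. Its share of the summed RPKM of the family was 99.4% ± 0.29 in AAV-Cre and 99.96% ± 0.02 in AAV-Luc (SD, n = 4 each). Tnni2 made up 0.327, 0.393, 0.538 and 0.967% in AAV-Cre, against 0.0222, 0.0435, 0.0216 and 0.0501% in AAV-Luc. Tnni1 made up 0.0346 to 0.0577% in AAV-Cre and 0.00409 to 0.00884% in AAV-Luc. The 3 shares had no overlap between groups and an adjusted p of 0.0429 (two-sided exact permutation p = 0.0286, adjusted over the 9 shares compared). Those 9 are not distinct, because the shares of a family add up to the whole. The Tnnt2 share is the complement of that of Tnnt1, and the Tnni3 share is what Tnni1 and Tnni2 leave. Which of the shares are counted can move the adjusted p, and its margin under 0.05 is narrow. The calls ended without AAV-Cre library 4 or without any of the AAV-Luc libraries, at an adjusted exact permutation p of 0.0514 to 0.0643 for Tnni1 and Tnni3 and 0.0643 to 0.0857 for Tnni2. Leaving out a library cannot make separated groups overlap, and 4 against 3 cannot give an exact permutation p under 0.0286. The adjusted p then also depends on how many other shares reach that floor. Without each library in turn the differences kept their sign, at 0.032 to 0.040 percentage points (Tnni1), 0.385 to 0.598 (Tnni2) and -0.638 to -0.424 (Tnni3). The summed RPKM of the family, the denominator of these shares, was itself lower, at 0.453 of the AAV-Luc mean.

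In troponin T the slow skeletal gene did not pass as deposited. Tnnt1 measured 11.1, 10.7, 13.2 and 9.24 RPKM in AAV-Cre, against 11.5, 13.4, 8.73 and 11.2 in AAV-Luc. The groups overlapped throughout, with a change of -0.013 (95% interval -0.32 to 0.30, limma adjusted p = 0.936), although after centring it was lower (-0.42, adjusted p = 0.0215). The troponin T share was taken of Tnnt1 and Tnnt2 alone, without Tnnt3. As such a share Tnnt1 was 0.205% ± 0.019 in AAV-Cre and 0.305% ± 0.030 in AAV-Luc (SD, n = 4 each). It was lower in each AAV-Cre library than in any AAV-Luc library (exact permutation p = 0.0286, adjusted 0.0429). The Tnnt2 share is its complement and gives the same test. That call also ended without AAV-Cre library 4 (adjusted 0.0857) or any AAV-Luc library (0.0514 in each exact permutation test). The difference kept its sign without each library in turn, at -0.115 to -0.091 percentage points. Tnnt2, nearly all of its denominator, was higher as deposited. Tnnt3, the fast skeletal troponin T gene that neighbours Tnni2 at 54425 bases, measured 1.51, 1.23, 2.31 and 2.53 RPKM in AAV-Cre, against 0.589, 0.826, 1.01 and 0.738 in AAV-Luc. It rose by 0.86 on the log2 scale (limma adjusted p = 0.00264), but was not called after centring (0.46, adjusted p = 0.0922). It reached the filter in all 4 AAV-Cre libraries and in 1 AAV-Luc library.

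**Figure D3:**
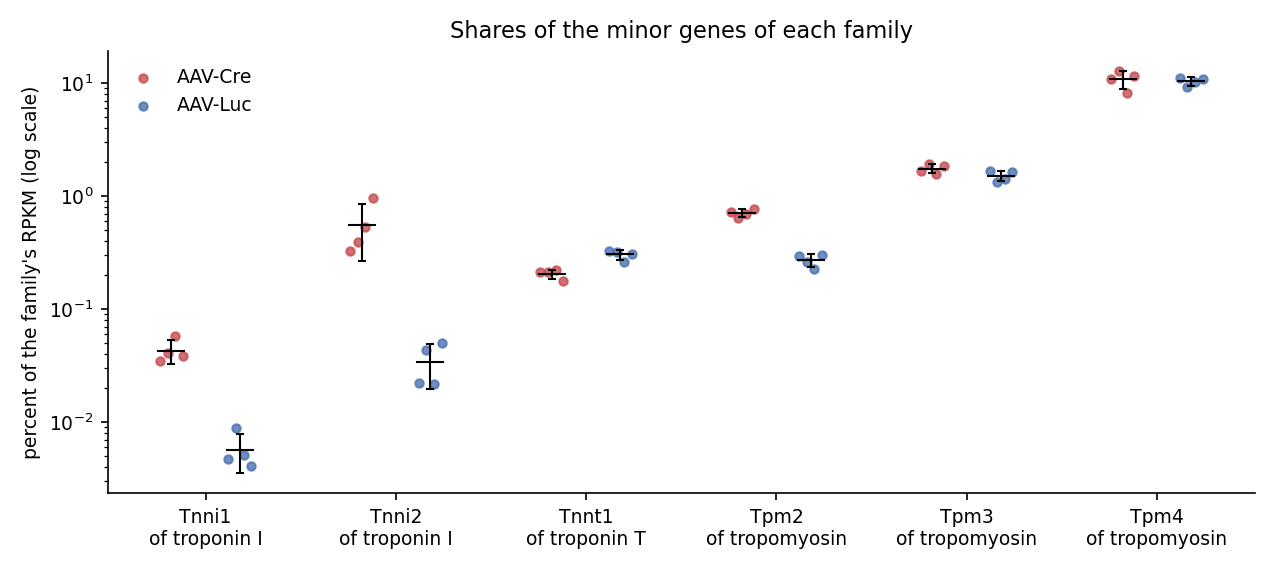
Share of each minor gene in the summed RPKM of its family, in percent on a log scale, with red points for AAV-Cre and blue for AAV-Luc and black bars for the mean and SD of 4 libraries. The shares of Tnni1, Tnni2 and Tpm2 are higher and that of Tnnt1 lower in all AAV-Cre libraries, while Tpm3 and Tpm4 overlap.

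Among the tropomyosin genes Tpm2 changed most. Tpm2, which encodes beta-tropomyosin of skeletal and smooth muscle, measured 30.7, 26.3, 29.6 and 32.4 RPKM in AAV-Cre, against 10.2, 9.44, 6.85 and 10.6 in AAV-Luc. The groups did not overlap, with a mean ratio of 3.21 and a log2 fold change of 1.64 (SE 0.13, limma adjusted p = 6.59e-06), or 1.24 after centring (adjusted p = 1.79e-05). Its share of tropomyosin was 0.709% ± 0.059 in AAV-Cre and 0.270% ± 0.035 in AAV-Luc (SD, n = 4 each; exact permutation p = 0.0286, adjusted 0.0429). The 0.0429 was adjusted over share tests that are not all distinct. The adjusted exact permutation p of the share was 0.0643 without AAV-Cre library 4 and 0.0514 without any AAV-Luc library. The difference kept its sign without each library in turn, at 0.416 to 0.463 percentage points.

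The log2 fold changes of the other tropomyosin genes lay near the median of all genes. Tpm1, the main tropomyosin of the heart, measured 3680, 3497, 3789 and 3575 RPKM in AAV-Cre, against 3013, 3229, 2683 and 3055 in AAV-Luc. It rose by 0.28 as deposited (SE 0.08, limma adjusted p = 0.00825) with no overlap, but stood at -0.13 after centring and was not called (adjusted p = 0.205), and at 0.52 with quantile normalization, where it was called (adjusted p = 0.000459). With no filter on low values the rise of 0.28 was not called (limma adjusted p = 0.113). Tpm3, a slow muscle and cytoskeletal tropomyosin, measured 66.7 to 79.7 RPKM in AAV-Cre and 43.2 to 57.9 in AAV-Luc, with a rise of 0.51 (SE 0.10, limma adjusted p = 0.00159) that was 0.10 and not called after centring (adjusted p = 0.382). Tpm4, a cytoskeletal tropomyosin, measured 464.9, 528.2, 344.9 and 482.8 RPKM in AAV-Cre, against 384.8, 333.6, 309.8 and 385.1 in AAV-Luc. AAV-Cre library 3 lay inside the AAV-Luc range. The rise of 0.35 (SE 0.13, limma adjusted p = 0.0342) was lost after centring (-0.055, adjusted p = 0.746), with quantile normalization (0.25, adjusted p = 0.132) and without any of AAV-Cre libraries 1, 2 or 4 or AAV-Luc libraries 2 or 3 (adjusted p = 0.0719, 0.095, 0.0797, 0.0733 and 0.0901).

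Tpm1 formed most of the tropomyosin message in both groups, at 86.7% ± 2.1 in AAV-Cre and 87.8% ± 1.1 in AAV-Luc (SD, n = 4 each; exact permutation p = 0.371, adjusted 0.418). Without AAV-Cre library 3, whose Tpm1 share of 89.6% was the highest of all and whose Tpm4 share of 8.15% was the lowest, the difference was -2.14 percentage points (exact permutation, adjusted p = 0.0367). Tpm4 held 10.9% ± 2.0 in AAV-Cre and 10.4% ± 0.9 in AAV-Luc, and Tpm3 1.75% ± 0.16 in AAV-Cre and 1.51% ± 0.16 in AAV-Luc (SD, n = 4 each). Neither share passed (exact permutation, adjusted p = 0.686 and 0.147). Tpm1 to Tnnt2 averaged 0.678 ± 0.032 in AAV-Cre and 0.824 ± 0.045 in AAV-Luc (SD, n = 4 each), a log2 difference of -0.28 with no overlap (exact permutation p = 0.0286, raw and adjusted). Of Tpm3's windows of 100 transcript bases, 15.8% are also in the copy Tpm3-rs7, which measured 1.61 RPKM in AAV-Cre and 1.12 in AAV-Luc on average, and 9.22% of those of Tpm4 are in other genes. No such window was shared by the other 8 members. Tpm4 also shares 134 exon bases with the antisense gene Gm26586, at a mean of 11.2 RPKM in AAV-Cre and 8.87 in AAV-Luc, and the use of strand in counting is not given in the sources used here.

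**Figure D4:**
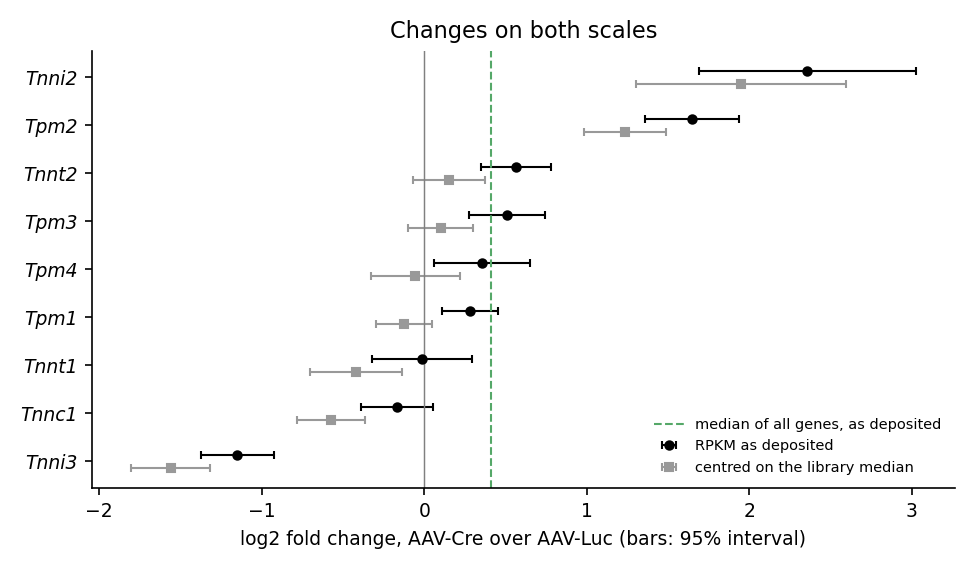
Log2 fold change of AAV-Cre over AAV-Luc for the 9 tested members, with 95% intervals, for RPKM as deposited (black circles) and after centring each library on its median (grey squares), with the median of all genes as deposited at 0.41 (green dashes). Tnni3 lies below 0 and Tpm2 and Tnni2 above it on both scales, while Tnnt2, Tpm1, Tpm3 and Tpm4 lie near the median of all genes.

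Summed by family, troponin I measured 1503 ± 150.5 RPKM in AAV-Cre and 3322 ± 333.6 in AAV-Luc. Troponin T, as Tnnt1 and Tnnt2 without Tnnt3, measured 5384 ± 428.1 in AAV-Cre and 3659 ± 386.6 in AAV-Luc. Tropomyosin measured 4194 ± 53.7 in AAV-Cre and 3409 ± 253.1 in AAV-Luc (SD, n = 4 each for all). The 10 genes together measured 12247 ± 490.4 RPKM in AAV-Cre and 11699 ± 1013 in AAV-Luc, a ratio of 1.05. Within AAV-Luc, library 2 had the highest value of Tnnc1, Tnni1, Tnni2, Tnni3, Tnnt1, Tnnt2 and Tpm1. Within AAV-Cre, library 3 had the highest value of Tnni1, Tnni3, Tnnt1, Tnnt2 and Tpm1 and the lowest of Tnnc1, Tpm3 and Tpm4. These are also the libraries with the most Myl7, an atrial light chain, at 112.9 RPKM in AAV-Cre library 3 and 26.2 in AAV-Luc library 2. Without both, the log2 ratio of Tnni3 to Tnnt2 differed by -1.71, and the members called were those called with all libraries.

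Markers of other cells moved with these changes, and in bulk tissue fewer cells of a type and less RNA per cell cannot be told apart. Of all genes tested, 64.4% were higher and 8.87% lower as deposited, and 21.8% and 24.1% after centring, and the marker counts are to be read beside these shares. Of 8 cardiomyocyte markers 2 were higher and 3 lower, or 0 and 6 after centring, with sums of 11792 to 13841 RPKM in AAV-Cre and 16474 to 18675 in AAV-Luc. Of 5 atrial markers 4 were tested and all 4 were higher, also after centring, with sums of 4664 to 10238 RPKM in AAV-Cre and 102.6 to 221.9 in AAV-Luc. Nearly all of these sums was Nppa, with a mean ratio of 56.1, beside ratios of 5.69, 4.93 and 5.38 for Myl7, Myl4 and Sln. The groups overlapped in Sln, at 2.68 to 12.3 RPKM in AAV-Cre and 0.179 to 3.04 in AAV-Luc, and it would have passed the filter through AAV-Cre alone. Beside the rise of Tnni2, 3 of 8 skeletal muscle markers could be tested and all 3 rose, also after centring, with sums of 742.0 to 1172 RPKM in AAV-Cre and 17.9 to 29.9 in AAV-Luc, nearly all of it Myl1. Atp2a1, of these 3, was at 1.66 to 3.25 RPKM in AAV-Cre and 0.137 to 0.255 in AAV-Luc, so it passed the filter only through AAV-Cre and had to differ. The other 5, the fast heavy chains Myh1, Myh2 and Myh4 among them, were under 1 RPKM in every library, and Myh4 was listed at 0 in all AAV-Luc libraries. Beside the rise of Tpm2, 5 of 6 smooth muscle markers rose, or 4 with 1 lower after centring, with sums of 1363 to 1783 RPKM in AAV-Cre and 191.8 to 343.8 in AAV-Luc, of which Acta2 averaged 1359 in AAV-Cre and 145.5 in AAV-Luc. Myh11, the smooth muscle heavy chain, averaged 15.6 RPKM in AAV-Cre and 7.35 in AAV-Luc, a log2 fold change of 1.04 (limma adjusted p = 2.18e-05). All 6 fibroblast markers rose, 5 of them after centring, with sums of 575.5 to 1039 RPKM in AAV-Cre and 255.2 to 272.8 in AAV-Luc. All 5 macrophage markers rose, also after centring, with sums of 235.9 to 313.2 RPKM in AAV-Cre and 115.4 to 124.4 in AAV-Luc. The endothelial sums were 146.9 to 175.5 RPKM in AAV-Cre and 143.7 to 184.7 in AAV-Luc, and in limma 0 of 5 endothelial markers passed (2 at an unadjusted p under 0.05), though 5 were lower after centring. The part of these cells in the changes of Tnni2, Tpm2, Tpm3 and Tpm4 was not tested.

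The genes whose values over the 8 libraries lay nearest to those of a member were sought among 7933 genes that averaged 5 RPKM or more, by the root mean square difference of their log2 values relative to the AAV-Luc mean. For Tnni3 these were Etfb, Cox4i1, D10Jhu81e and Ndufs7, at distances of 0.052, 0.061, 0.063 and 0.065 on the log2 scale. Such a distance is set largely by the difference between groups. These genes changed by -1.10, -1.21, -1.10 and -1.17, beside -1.15 for Tnni3. Which kinds of genes share a fall of that size was not counted. Etfb, for the electron transfer flavoprotein beta subunit, averaged 137.3 RPKM in AAV-Cre and 294.2 in AAV-Luc, and Cox4i1, for a subunit of respiratory complex IV, 391.4 in AAV-Cre and 904.5 in AAV-Luc. For Tnnt2 they were Lcmt2, Nabp2, Pes1 and Sqstm1, at 0.045 to 0.053, and for Tpm1 they were Araf, Mboat7, Camk1 and Kdm1a, at 0.025 to 0.032. For Tnnc1 they were Gatb, Nisch, Ndufaf3 and Eif4ebp1, at 0.066 to 0.090. Nisch overlaps Tnnc1 on the opposite strand, with 0 shared exon bases.

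The genes that work on or with the thin filament were read from lists, whose counts stand beside 64.4% higher and 8.87% lower for all genes as deposited, and 21.8% and 24.1% after centring. Of 15 thin filament partners 14 were tested, and as deposited 9 rose and 3 fell (median 0.30). Centring left 5 higher and 5 lower. Skeletal actin Acta1 averaged 933.4 ± 94.5 RPKM in AAV-Cre and 76.4 ± 17.7 in AAV-Luc (SD, n = 4 each), a log2 fold change of 3.63 (limma adjusted p = 3.59e-07). The actin-severing protein Cfl2 and the actin-binding Cap2 rose by 0.74 and 0.72. Tmod4, a pointed-end capping protein of skeletal muscle, fell to 5.43 ± 0.67 RPKM in AAV-Cre, against 10.02 ± 1.17 in AAV-Luc (SD, n = 4 each), a log2 change of -0.83 (limma adjusted p = 9.65e-05).

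Of 16 kinases, kinase subunits and phosphatases that act on troponin or its phosphorylation, 11 rose and 0 fell in limma as deposited, also 0 at an unadjusted p under 0.05 (median 0.49), or 7 rose and 4 fell after centring. Prkar1a, the regulatory subunit of protein kinase A that holds the enzyme inactive, averaged 5043 ± 160.4 RPKM in AAV-Cre and 1341 ± 59.2 in AAV-Luc (SD, n = 4 each). Its log2 fold change was 1.91 (limma adjusted p = 7.91e-08), and it was also higher after centring. The kinases Rock1, Rock2 and Prkca rose by 1.06, 1.12 and 0.78 on the log2 scale, also after centring. The catalytic subunits Prkaca and Prkacb did not pass as deposited, at -0.17 and 0.15, and were lower after centring, at -0.58 and -0.26. They are named beside Prkar1a after their values were seen.

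All 13 splicing factors of muscle were called, 12 higher and 1 lower (median 0.46), but after centring 2 were higher and 2 lower. Celf1 and Celf2, which bind troponin T pre-mRNA, rose by 0.72 each, also after centring, by 0.31 each. Mbnl1 and Mbnl2 rose by 0.60 and 0.54 but were not called after centring. Of 13 muscle transcription factors 9 rose and 1 fell (median 0.45), or 4 and 4 after centring. Srf, Nkx2-5, Tead1 and Gata4 rose by 1.07, 0.81, 0.69 and 0.65, also after centring. Splice forms of Tnnt2 and Tpm1 were not analysed here.

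**Figure D5:**
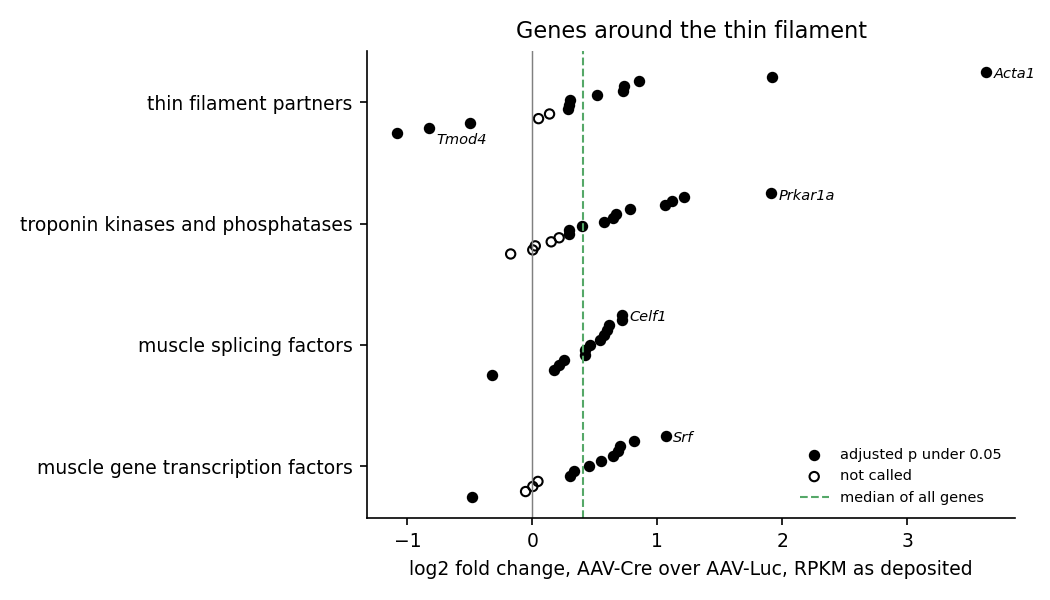
Log2 fold change of AAV-Cre over AAV-Luc for each tested gene of 4 lists around the thin filament, with filled points for an adjusted p under 0.05, open points for genes not called, and green dashes at the median of all genes, 0.41. Acta1 at 3.63 stands farthest to the right, and Prkar1a at 1.91 is the highest of the kinases and phosphatases.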

How the data were processed

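Per the labels' protocols, RNA of both ventricles was enriched for poly(A) and sequenced as paired ends in a single lane. The protocols name a TruSeq and a NEBNext kit without saying which library had which, and with no link from columns to titles no batch could be examined. The authors deposited RPKM values per gene and the mean of each group. STAR, edgeR, Partek 6.6, FastQC 0.11 and build mm10 were used, per the submitters' processing notes, which give them no order here. Gene lengths, annotation and strandedness of counting are unknown. Column names give a group but no sample, so the 8 columns are replicates known only by group. Library totals were estimated from genes of 1 transcript, where 99.6 to 99.7% of the low values were whole multiples of 1 step within 0.1. Of these low values 74.0 to 79.0% lay nearest to an even multiple, so both ends of a pair may have been counted as reads. The level of a share rests on the unknown gene lengths. In troponin T its direction between groups does not. In the larger families the direction can rest on them too for Tnni1, Tpm3 and Tpm4, whose ratios between groups lie between those of other members.

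A filter of 1 RPKM or more in 4 or more libraries came before limma 3.58.1 (R 4.3.3) on log2(RPKM + 0.5), a scale that understates changes of low genes, with a variance trend and Benjamini-Hochberg adjustment over all 16385 genes. Shares and ratios had two-sided exact permutation tests over 70 arrangements. The shares of a family add up to the whole, so the share tests are not all distinct. Alternatives were pseudocounts, filters, scalings, a robust prior, library weights and leaving out libraries. Members and lists were chosen with earlier results of these data known. Named were all members, the other troponin genes Tnnc2 and Tnnt3, up to 4 called genes of smallest p in each list, and the 4 nearest genes of each adult heart member, without unnamed gene models. Leaving out the libraries of most Myl7 was chosen after seeing the data. Plots and annotation used Python 3.11.15 with GENCODE M21 (GRCm38, the assembly of mm10).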

Additional observations from a re-analysis of the deposited data

Results flagged for a closer look

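Of 46 groups of 4 values examined for a value far from the rest, 1 stood out, where chance gives about 1 in 20. Tnni1 measured 0.336 RPKM in AAV-Luc library 2, against 0.131 to 0.165 in the other AAV-Luc libraries, and the gap is 0.836 of the range of the group. It is also the library of that group with the most Myl7, and the fewest reads by the implied totals.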

How the results depend on the processing

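Scaling moved the counts. Over all genes, 3578 were higher and 3949 lower after centring, and 3810 and 3838 with quantile normalization. Of the 9710 genes averaging 5 RPKM or more, 6607 were higher, beside 10559 of the 16385 genes of the main fit, so the smaller count goes with fewer genes tested. Of the members, 2 were higher and 3 lower after centring, and 2 were lower with quantile normalization and also without mitochondrial and haemoglobin genes. Of the list genes, 18 were higher and 15 lower after centring, and 22 and 13 with quantile normalization. Tpm1 and Tpm4 changed sign after centring (-0.13 and -0.055), but not with quantile normalization (0.52 and 0.25). With no filter on low values neither Tpm1 nor Tpm4 was called (limma adjusted p = 0.113 and 0.0826). Leaving out each library in turn left 5 to 6 members higher and 1 to 2 lower, with Tnnt1 at -0.12 to 0.077. With 4 against 3 libraries the shares differed by 0.032 to 0.040 percentage points for Tnni1, 0.385 to 0.598 for Tnni2, -0.638 to -0.424 for Tnni3, -0.115 to -0.091 for Tnnt1, 0.091 to 0.115 for Tnnt2, 0.416 to 0.463 for Tpm2, -2.14 to -0.50 for Tpm1 and -0.14 to 1.40 for Tpm4. The adjusted exact permutation p of the called shares ranged up to 0.0857 there. With 4 against 3 the raw p cannot be under 0.0286, and the adjusted p also depends on how many other shares reach that floor. Without the libraries of most Myl7, 3 against 3 cannot give an exact permutation p under 0.1. The shares then differed by 0.0335 (Tnni1), 0.531 (Tnni2), -0.565 (Tnni3), -0.101 (Tnnt1), 0.101 (Tnnt2) and 0.438 (Tpm2), at an adjusted p of 0.113. The log2 ratios differed by -1.71 (Tnni3 to Tnnt2), -1.07 (Tnni3 to Tnnc1), 0.63 (Tnnt2 to Tnnc1) and -0.28 (Tpm1 to Tnnt2), at an adjusted p of 0.1. Tnni2 and Tnnt3 are below a mean of 5 RPKM and have no value under that filter. No paired analysis was possible because nothing in the labels ties a column of AAV-Cre to a column of AAV-Luc. The reads behind Tnni1 limit what its values show.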
